A study of Homo sapiens with 6 samples.

Results

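The enzymes that write, maintain and remove DNA methylation were examined in human AID-DIvA cells with and without ARID1A. The group holds 10 genes, chosen by name: the DNA methyltransferases DNMT1, DNMT3A, DNMT3B and DNMT3L, the hemimethylated-DNA binding proteins UHRF1 and UHRF2, the dioxygenases TET1, TET2 and TET3, and the DNA glycosylase MBD4. These are 10 of the 57820 genes in the deposited tables, and 9 of them are among the 19599 genes with enough counts to be tested. AID-DIvA cells are U2OS human osteosarcoma cells with an integrated vector for the restriction enzyme AsiSI, which cuts the genome only after 4-hydroxytamoxifen is given. Both genotypes carried this vector and both were untreated. RNA-seq covered 3 WT samples and 3 samples with a knockout of ARID1A (ARID1A-KO), a DNA-binding subunit of SWI/SNF chromatin remodelers, numbered 3, 4 and 5 in each genotype. The knockout was made with Cas9 and 2 crRNAs, and clones were established from the edited cells. Which clone was sequenced is not given in the sources used here, so the 3 ARID1A-KO samples may share 1 clone, and the p-values then measure the spread between samples of that clone.

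DNA methylation in mammals sits mostly on the cytosine of CpG dinucleotides and is linked to stable silencing of promoters, transposons and germline genes. After replication, UHRF1 binds CpGs that are methylated on the old strand only and brings DNMT1 to them, so that the pattern is copied, while DNMT3A and DNMT3B methylate DNA that carries no mark and DNMT3L is their catalytically inactive partner in germ cells. TET enzymes oxidise 5-methylcytosine, which is then lost through replication or through base excision repair begun by TDG, and MBD4 removes thymine that arises where methylated cytosine is deaminated.

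The transcript of ARID1A checked the labels. It had 166, 178 and 177 CPM (counts scaled to library size) in WT replicates 3, 4 and 5 and 25.1, 27.5 and 25.2 CPM in the ARID1A-KO replicates (log2 fold change -2.74, SE 0.07, adjusted p = 9.66e-08, edgeR). Counts per sample ranged from 54512105 to 84088708. Of 11 osteoblast and osteosarcoma markers, 8 were expressed enough to be tested, among them VIM, COL1A1 and RUNX2, but SP7, BGLAP and IBSP, which mark the osteoblast lineage, had means of at most 0.131 CPM in either genotype. The summed level of these 11 markers was 3200 to 3930 CPM in WT and 4850 to 5620 CPM in ARID1A-KO samples, most of it VIM (2350 ± 240 and 4220 ± 334 CPM). VIM rose, while ALPL (9.68 to 1.76 CPM, adjusted p = 0.000148, edgeR), SPP1 (40.5 to 14.7 CPM, adjusted p = 0.00222) and COL1A1 (447 to 322 CPM, adjusted p = 0.0129) fell, and the median log2 fold change of the 8 was -0.32. The part of this change of markers in the results below was not tested. Of 10 markers of epithelial, blood, endothelial and glial cells 5 were tested, of which PTPRC (1.95 to 0.445 CPM, adjusted p = 0.00292, edgeR) and CDH1 (1.25 to 0.54 CPM, adjusted p = 0.00593) fell and EPCAM (5.15 to 7 CPM, adjusted p = 0.0274) rose. CD3E and SOX10 were at 0 in all ARID1A-KO samples. The summed level of these markers was 9.38 to 12.2 CPM in WT and 10.2 to 10.6 CPM in ARID1A-KO samples.

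Transcripts of 5 of the 9 tested enzymes fell in ARID1A-KO cells, and none rose. Those that fell were UHRF2, UHRF1, DNMT1, MBD4 and TET3, by log2 values between -0.79 and -0.41, whereas DNMT3A, DNMT3B, TET1 and TET2 did not pass the test. A gene is said to rise or fall here where edgeR's quasi-likelihood test gave a Benjamini-Hochberg adjusted p under 0.05 over all genes tested. By this rule 36.2% of all genes tested changed and 18.4% fell, against 55.6% of the tested enzymes. CPM values of WT and ARID1A-KO samples did not overlap for 6 of the 9, the same 5 and TET2, and this held for 49.5% of all genes tested. The median log2 fold change of the 9 enzymes was -0.41, beside 0.0066 over all genes. Of the 5 falls, those of UHRF2, MBD4 and DNMT1 were no longer called once the shift of their chromosomal neighbours was taken off, and those of UHRF1 and TET3 still were.

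Levels per transcript length were compared on the deposited TPM scale. In WT cells UHRF1 was the most abundant of the 10 transcripts with 214 ± 18.0 TPM (SD, n = 3), followed by DNMT1 with 163 ± 9.36 TPM. MBD4, DNMT3B and TET3 came next with means of 52.3, 45.5 and 39.3 TPM, and the values of MBD4 and DNMT3B overlapped. UHRF2 with 16.3 TPM, DNMT3A with 9.98 TPM, TET2 with 5.97 TPM and TET1 with 1.42 TPM were lower, without overlap between neighbours in this order. In ARID1A-KO cells UHRF1 (146 ± 11.2 TPM) and DNMT1 (123 ± 4.64 TPM) remained the highest. There DNMT3B with 48.3 TPM stood above MBD4 with 39.6 TPM, and DNMT3A with 11.1 TPM overlapped UHRF2 with 9.54 TPM. The exact permutation test of TPM gave a two-sided p of 0.1 for each of the 6 genes without overlap (adjusted p = 0.167 over the 10 genes), which is the smallest p that 3 samples against 3 allow.

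**Figure D1:**
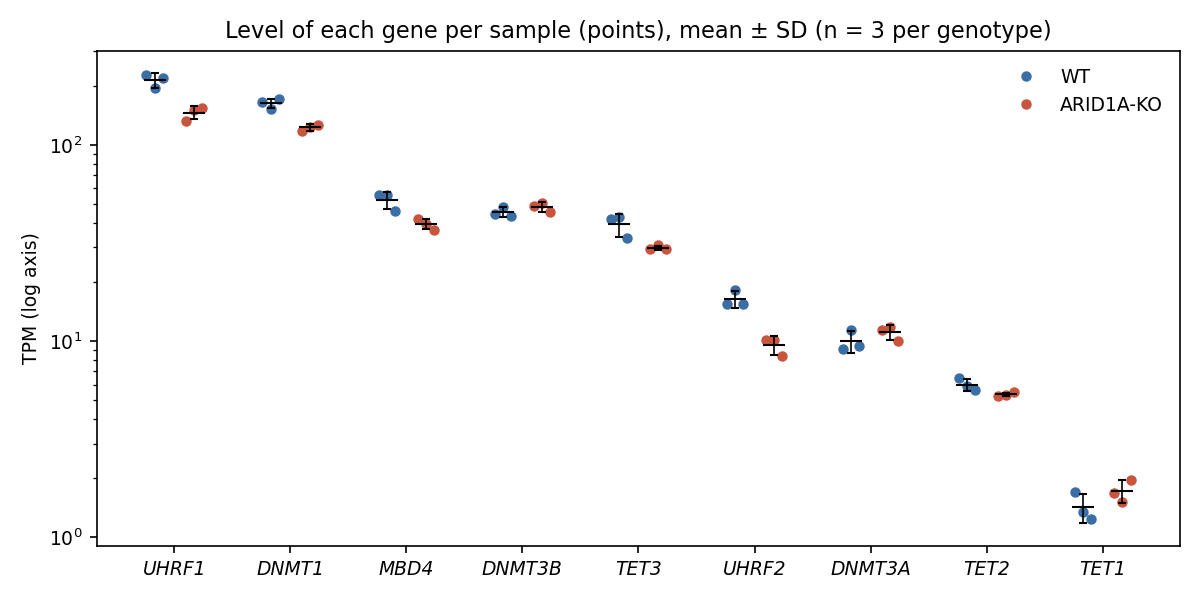
TPM of the 9 tested enzymes on a log axis, in order of their WT level, with each sample as a point (WT blue, ARID1A-KO red), the mean as a bar and the SD as an error bar (n = 3 per genotype). UHRF1, DNMT1, MBD4, TET3, UHRF2 and TET2 have all 3 ARID1A-KO points below all 3 WT points, while DNMT3A, DNMT3B and TET1 overlap.

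UHRF1, the E3 ligase that reads hemimethylated CpGs, showed the clearest fall of the maintenance enzymes. The gene (ENSG00000034063.9) spans 4903092 to 4962165 of chromosome 19 (GRCh37, plus strand). Its level was 262, 227 and 261 CPM in WT replicates 3, 4 and 5 and 157, 174 and 174 CPM in ARID1A-KO replicates 3, 4 and 5. Every ARID1A-KO sample thus lay below every WT sample. UHRF1 fell by 32.6%, a log2 fold change of -0.57 (SE 0.08, 95% confidence interval -0.74 to -0.40, adjusted p = 0.000441, edgeR).

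UHRF1 is known as a gene of the E2F transcription factors, which act at the start of S phase, and its promoter windows are shown because the level of UHRF1 is set beside that of S phase genes below. RefSeq promoter sequences (GRCh38.p14 table, 250 bases before each start site) were available for 9 of the 10 enzymes. Those of UHRF1 and DNMT1 were located in GRCh37 by exact match. The sequences of all 9 were searched on both strands for 4 forms of the E2F site, TTTCCCGC, TTTCGCGC, TTTGCCGC and TTTGGCGC. Of the 20 start sites of the enzymes, 2 held a form, and both belong to UHRF1. Among all 35116 windows of the table, 979 (2.79%) held one. Capitals mark the form in the sequences below, which are read on the plus strand, and a match is a run of letters and not evidence of binding. The first is the last 30 bases before start site 1, chr19:4909483-4909512, which overlap exons of other UHRF1 transcripts. The second is the window of 250 bases before start site 2, chr19:4909906-4910155, which overlaps no annotated exon of UHRF1. It holds 32 CpGs, where all windows have a median of 11 and a 75th percentile of 23. This number is not particular to it, since windows without a form held 41 (UHRF1 start site 3), 37 (TET3), 34 (TET2) and 33 (DNMT3A). Exons of other genes were not checked.
UHRF1 start site 1: caaatgccgagttttcGCGGGAAAaaaatc
UHRF1 start site 2: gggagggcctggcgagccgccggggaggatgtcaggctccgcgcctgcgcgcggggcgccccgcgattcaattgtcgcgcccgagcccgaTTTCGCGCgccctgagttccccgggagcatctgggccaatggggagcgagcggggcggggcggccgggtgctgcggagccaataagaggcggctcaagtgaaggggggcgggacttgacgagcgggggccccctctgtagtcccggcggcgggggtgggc
The first match lies 14 to 7 bases before its start site and reads as TTTCCCGC on the minus strand, and the second lies 160 to 153 bases before its start site.

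DNMT1, the methyltransferase that copies methylation onto the new strand, spans 10244021 to 10341962 of the same chromosome, minus strand (ENSG00000130816.10). It had 360, 342 and 388 CPM in WT replicates 3, 4 and 5 and 265, 275 and 272 CPM in the ARID1A-KO replicates. The lowest WT sample was above the highest ARID1A-KO sample, and the ARID1A-KO samples lay close together (SD 5.19 CPM against 22.8 CPM in WT). DNMT1 fell by 25.6% (log2 fold change -0.43, SE 0.06, 95% confidence interval -0.57 to -0.28, adjusted p = 0.000906, edgeR). Its neighbours within 5 Mb had a median of -0.27, and with that shift taken off the value was -0.15 (adjusted p = 0.0973, edgeR). Genes that overlap DNMT1 on the same strand, which share its reads, had at most 0.956% of its counts.

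UHRF1 and DNMT1 are made mainly in dividing cells, so their levels were also set against 25 genes of S phase. UHRF1 came to 4.51%, 4.18% and 4.44% of the summed S phase TPM in WT replicates 3, 4 and 5, and to 2.89%, 3.28% and 3.28% in the ARID1A-KO replicates. DNMT1 came to 3.34% ± 0.11 (SD, n = 3) in WT and 2.65% ± 0.08 in ARID1A-KO samples. The genotypes did not overlap in either share (exact permutation test, two-sided p = 0.1, the smallest possible). The summed S phase TPM itself ranged from 4630 to 5060 in WT and from 4560 to 4710 in ARID1A-KO samples, with overlap (means 4880 ± 222 and 4620 ± 78.6). In these bulk samples, fewer cells in S phase and less RNA per cell cannot be told apart.

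UHRF2, a relative of UHRF1 that does not replace it in maintaining methylation, had the largest change of the 9. The gene (ENSG00000147854.12) spans 6413151 to 6507054 of chromosome 9, plus strand. Its level was 34, 41.2 and 35.3 CPM in WT replicates 3, 4 and 5 and 23.0, 22.8 and 18.1 CPM in the ARID1A-KO replicates. The genotypes were well apart, with ARID1A-KO replicate 5 the lowest. UHRF2 fell by 42.3% (log2 fold change -0.79, SE 0.11, 95% confidence interval -1.04 to -0.54, adjusted p = 0.000581, edgeR). Of its 29 neighbours within 5 Mb, 27 were also lower, with a median of -0.84, and relative to them UHRF2 was at 0.05 (adjusted p = 0.77, edgeR).

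None of the de novo methyltransferases changed by the test. DNMT3A (ENSG00000119772.12, chromosome 2, 25455845 to 25565459, minus strand) had 14, 18 and 15 CPM in WT replicates and 18, 18.5 and 15.1 CPM in ARID1A-KO replicates 3, 4 and 5. These ranges overlapped, and the 95% confidence interval of the log2 fold change ran from -0.13 to 0.40 (adjusted p = 0.407, edgeR). DNMT3B (ENSG00000088305.14, chromosome 20, 31350191 to 31397162, plus strand), the more abundant of the pair, had 45.9, 51.2 and 46.6 CPM in WT and 52.0, 53.0 and 45.9 CPM in ARID1A-KO samples. Its interval was -0.10 to 0.24 (log2 fold change 0.07, adjusted p = 0.514, edgeR). Genes around DNMT3B were higher in ARID1A-KO cells, by a median of 0.24 within 5 Mb (96 genes) and 0.45 within 2 Mb (54 genes). Relative to these medians DNMT3B was at -0.17 (adjusted p = 0.116, edgeR) and at -0.38 (adjusted p = 0.00559, edgeR), so the distance chosen decides whether it is called lower than its neighbours. DNMT3L (ENSG00000142182.4, chromosome 21, 45666222 to 45682099, minus strand) had 1 count in WT replicate 5 and 0 in the other 5 samples, and was not tested. A count of 0 allows up to 3 counts, which is between 0.0341 and 0.0546 CPM in these libraries.

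Of the TET enzymes, TET3 fell. TET3 (ENSG00000187605.11, chromosome 2, 74229840 to 74335303, plus strand) had 107, 112 and 88.0 CPM in WT replicates 3, 4 and 5 and 77.3, 79.7 and 73.7 CPM in the ARID1A-KO replicates. WT replicate 5 was the lowest of its group but still above all ARID1A-KO samples. The fall was 24.8% (log2 fold change -0.41, SE 0.09, 95% confidence interval -0.61 to -0.21, adjusted p = 0.00617, edgeR), while the 94 neighbours within 5 Mb had a median of 0.04. TET2 (ENSG00000168769.8, chromosome 4, 106067032 to 106200973, plus strand) had 23.7, 22.1 and 21.3 CPM in WT and 19.9, 19.7 and 19.7 CPM in ARID1A-KO samples. Its samples did not overlap by genotype, but the difference did not pass the test (log2 fold change -0.18, 95% confidence interval -0.34 to -0.01, adjusted p = 0.087, edgeR). With an offset for exonic length TET2 was at -0.02, and relative to its neighbours within 5 Mb at -0.03. TET1 (ENSG00000138336.8, chromosome 10, 70320413 to 70454239, plus strand) was the lowest of the family, with 3.51, 2.83 and 2.63 CPM in WT and 3.58, 3.18 and 3.98 CPM in ARID1A-KO samples. Its log2 fold change of 0.26 had a wide interval of -0.09 to 0.62 (adjusted p = 0.223, edgeR). Of the 74 neighbours of TET1 within 5 Mb, 64 were higher in ARID1A-KO cells, with a median of 0.42, and relative to them TET1 was at -0.16 (adjusted p = 0.47, edgeR).

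MBD4 (ENSG00000129071.5, chromosome 3, 129149787 to 129158878, minus strand) had 39.7, 40.8 and 34.1 CPM in WT replicates 3, 4 and 5 and 31.0, 28.9 and 26.0 CPM in the ARID1A-KO replicates. The genotypes did not overlap, and replicate 5 was the lowest in both. MBD4 fell by 25.1% (log2 fold change -0.42, SE 0.09, 95% confidence interval -0.63 to -0.21, adjusted p = 0.00691, edgeR). Of its 81 neighbours within 5 Mb, 70 were also lower, with a median of -0.42, and relative to them MBD4 was at 0.0075 (adjusted p = 0.96, edgeR).

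Set against the genes around them, the enzymes gave several patterns. UHRF2 and MBD4 differed from the median of their neighbours within 5 Mb by at most 0.05 on the log2 scale. Within 2 Mb MBD4 was at -0.07 (adjusted p = 0.612, edgeR), and the neighbours of UHRF2 had lower medians of -1.04 within 1 Mb (8 genes) and -1.05 within 10 Mb (52 genes). Relative to the WT mean, UHRF2 was at -0.67, -0.69 and -1.02 on the log2 scale in ARID1A-KO replicates 3, 4 and 5, and the median of its neighbours was at -0.76, -0.92 and -0.89. Of the 245 neighbours of DNMT1 195 were lower in ARID1A-KO cells, and the value of DNMT1 relative to them did not pass the test. For UHRF1 the answer depended on the distance, because the 262 genes within 5 Mb had a median of -0.03 and the 99 within 2 Mb a median of -0.25. UHRF1 was still called lower after either shift was taken off, with -0.54 and -0.32 (adjusted p = 0.000804 and 0.0113, edgeR). TET3 was called lower in both cases too, with -0.45 and -0.51 (adjusted p = 0.00492 and 0.00265, edgeR). These fits took the neighbours' median as fixed, so their p-values leave out its uncertainty and the spread among the neighbours. DNA copy number was not measured here, and its part in these regional shifts was not tested.

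**Figure D2:**
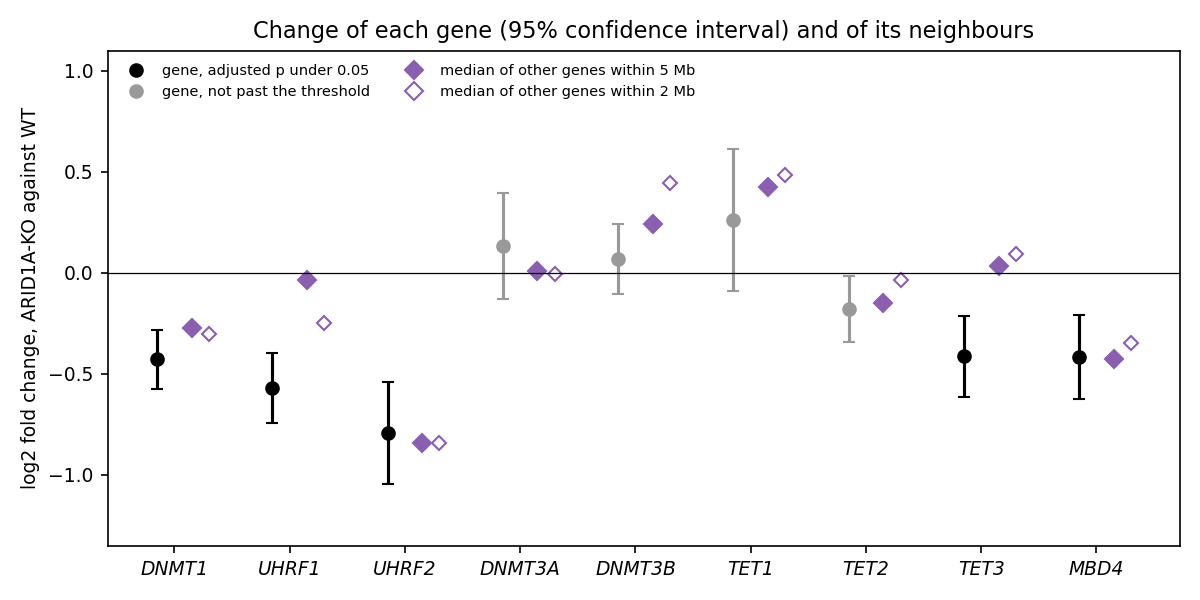
Log2 fold change of each enzyme in ARID1A-KO against WT samples with its 95% confidence interval (circles, black where the adjusted p is under 0.05), beside the median log2 fold change of the other tested genes within 5 Mb (filled diamonds) and 2 Mb (open diamonds). The diamonds of UHRF2 and MBD4 lie within the interval of the gene, while those of UHRF1 and TET3 lie above it.

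**Figure D3:**
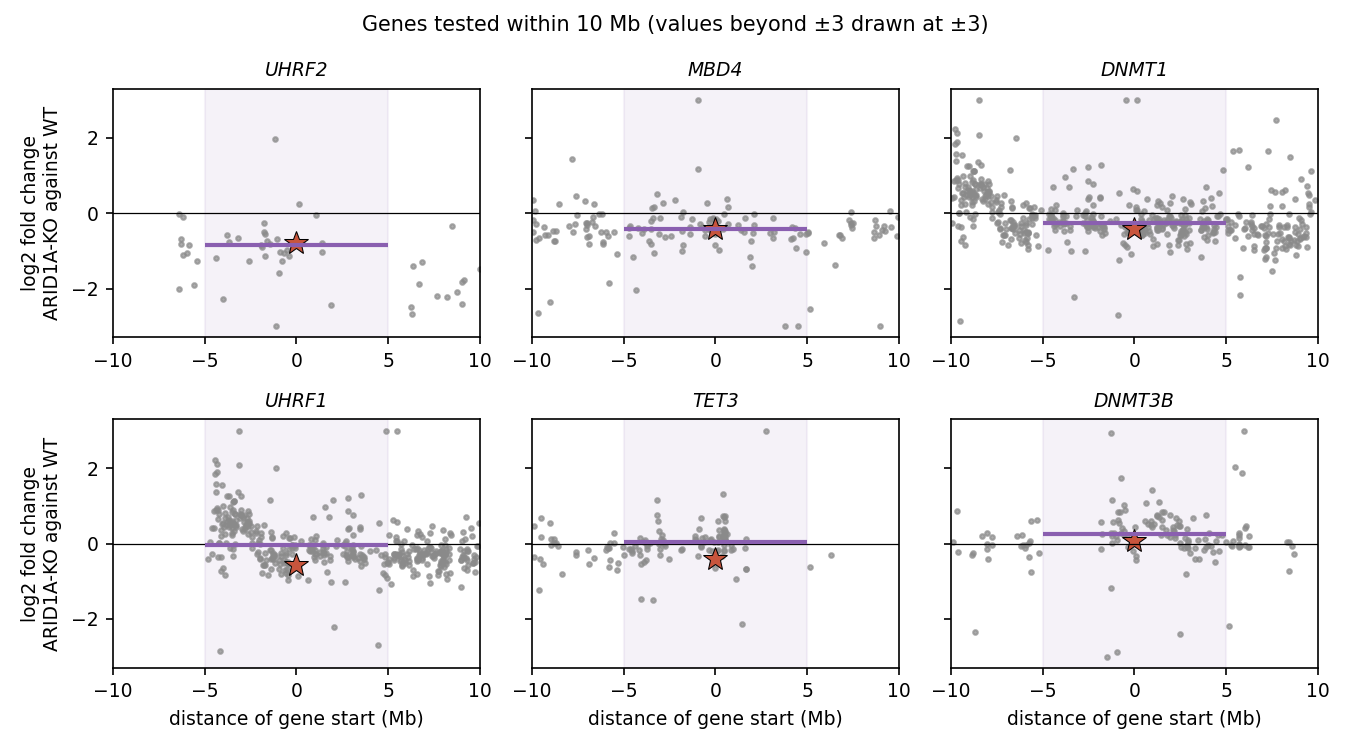
Log2 fold change of every tested gene within 10 Mb of 6 of the enzymes, against the distance between gene starts in Mb, with the enzyme as a star, the range of 5 Mb shaded and the median of the neighbours in it as a line. Around UHRF2, MBD4 and DNMT1 most points lie below 0. The star lies at or near the line for UHRF2 and MBD4 and below it for DNMT1 (-0.43 against -0.27). Around UHRF1 the points change from above to below 0 along the chromosome.

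Ratios between related enzymes were computed within each sample, where scaling between samples cancels. The ratio of DNMT1 to the sum of DNMT3A and DNMT3B was 1.62, 1.35 and 1.69 on the log2 scale in WT replicates 3, 4 and 5 and 0.96, 0.99 and 1.2 in the ARID1A-KO replicates. Maintenance methyltransferase transcript thus exceeded de novo transcript by a mean of 2.94-fold in WT cells and 2.07-fold in ARID1A-KO cells, without overlap. Of the summed DNMT TPM, DNMT1 made up 74.6% ± 2.37 (SD, n = 3) in WT cells and 67.4% ± 1.94 without ARID1A. Of the summed TET TPM, TET3 made up 84.1% ± 1.34 in WT cells and 80.9% ± 1.01 without ARID1A. The log2 ratios of TET1 and of TET2 to TET3 were higher in ARID1A-KO cells by 0.67 and 0.23, both without overlap. For the 3 ratios without overlap the exact permutation test gave its smallest two-sided p of 0.1 (adjusted p = 0.167 over 5 ratios). No shift of chromosomal neighbours was taken off these ratios. The neighbours' medians within 5 Mb were -0.27 for DNMT1, 0.01 for DNMT3A and 0.24 for DNMT3B. They were 0.42 for TET1, -0.15 for TET2 and 0.04 for TET3. The part of these regional shifts in the ratios was not tested. The ratio of UHRF1 to UHRF2 differed by 0.23 (exact p = 0.5) and that of DNMT3A to DNMT3B by 0.07 (exact p = 0.4), both with overlap.

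**Figure D4:**
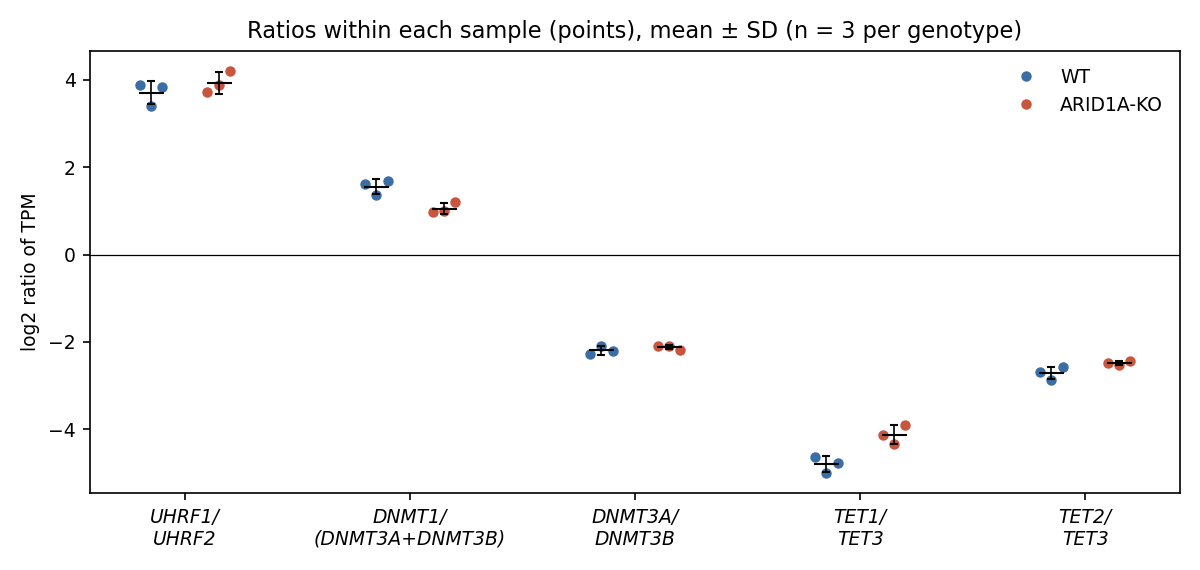
Log2 ratio of TPM between related enzymes in each sample (points), with the mean and SD of each genotype (n = 3). The ratio of DNMT1 to the de novo enzymes is lower in the 3 ARID1A-KO points than in the 3 WT points, the 2 ratios to TET3 are higher, and the other 2 overlap. No shift of chromosomal neighbours was taken off.

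For each enzyme that fell, the 3 genes with the nearest profile were sought by the Euclidean distance of centred log2 CPM over the 6 samples, among 13216 genes. TMEM261, the nearest to UHRF2 (distance 0.0649), is also on chromosome 9. The nearest to UHRF1 were MEX3B, RAB11B and LPP-AS2, of which RAB11B is on chromosome 19 as well. ASPHD2, KRT18 and USP5 were nearest to DNMT1, A2M-AS1, FAM210A and BICD1 to TET3, and ZNF528, FAM107B and FBXO3 to MBD4. Distances ranged from 0.0522 for ASPHD2 to 0.121 for KCTD12, which with PDGFA was also near UHRF2. Over only 6 samples such a likeness is a description.

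Genes that read, support or act downstream of these enzymes were followed in 8 lists of 137 genes. Of the 120 tested, 16 rose and 24 fell, 33.3% in all against the 36.2% of all genes, and their median log2 fold change was -0.07. Without ARID1A-KO replicate 4, 10 rose and 16 fell. Over all genes tested, 2538 rose and 2747 fell in that fit, against 3483 and 3616 with all samples. The share of 33.3% is near that of all genes, and the values below describe single genes.

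Of 7 proteins that bind methylated CpGs, 3 fell and 1 rose, with a median of -0.18. MBD2, the methyl-CpG binding subunit of NuRD, fell from 48.8 ± 0.858 to 35.4 ± 1.87 CPM (log2 fold change -0.46, adjusted p = 0.000529, edgeR). ZBTB38, a zinc finger protein that binds methylated DNA, fell by 0.80 on the log2 scale and was at -0.37 relative to its neighbours within 5 Mb (adjusted p = 0.0186). MBD3, the NuRD subunit that barely binds methylated DNA, rose by 0.48 (adjusted p = 0.00501, edgeR), but was at 0.02 relative to its neighbours within 2 Mb (adjusted p = 0.88).

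The list of cofactors of DNMT1, UHRF1 and the DNMT3 enzymes showed 6 falls and no rise among 15 tested, with a median of -0.16. The list also holds histone methyltransferases, and the 6 that fell were CDCA7L and genes of that kind. KMT2A, a histone H3K4 methyltransferase with a CpG-binding domain, fell by 0.45 on the log2 scale (adjusted p = 0.00129, edgeR). NSD2 (WHSC1 in the tables) and NSD1, which make the H3K36 methylation that DNMT3 enzymes read, fell by 0.40 and 0.29 (adjusted p = 0.00121 and 0.00426, edgeR). CDCA7L, a relative of the HELLS activator CDCA7, fell by 0.32 and was at -0.15 relative to its neighbours within 5 Mb (adjusted p = 0.123). SETD2 and EHMT2, histone methyltransferases named here after their values were seen, fell by 0.27 and 0.16 (adjusted p = 0.0101 and 0.0446, edgeR). EHMT2 passed narrowly, and neither gene was followed singly under the alternative settings. HELLS, the remodeler that opens chromatin to DNMT1 and DNMT3B, was at 33.3 ± 5.53 CPM in WT and 33.0 ± 3.27 CPM in ARID1A-KO cells (log2 fold change -0.01, 95% confidence interval -0.28 to 0.26, adjusted p = 0.962, edgeR). The sign of this value turned under several settings, and relative to neighbours within 2 Mb it was -0.48 (adjusted p = 0.0148). With an offset for exonic length NSD1 was not called (-0.14, adjusted p = 0.079), and KMT2A and NSD2 were called with smaller values of -0.25 and -0.22 (adjusted p = 0.0194 and 0.0246).

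Base excision repair after demethylation had 1 rise and 1 fall among 13 genes, with a median of -0.03. NEIL3, a glycosylase of dividing cells, fell from 20.3 ± 0.73 to 8.70 ± 0.255 CPM (log2 fold change -1.23, SE 0.08, adjusted p = 7.58e-06, edgeR), beside a neighbours' median of -0.28. APEX1, the abasic site endonuclease, rose by 0.51 (adjusted p = 0.00111, edgeR), and was at 0.19 relative to its neighbours within 5 Mb (adjusted p = 0.0938). TDG, which excises the products of TET oxidation, had 28.2 ± 1.94 CPM in WT and 25.1 ± 2.02 CPM in ARID1A-KO cells (log2 fold change -0.17, 95% confidence interval -0.36 to 0.02, adjusted p = 0.149, edgeR).

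Cofactors and regulators of TET enzymes had 2 rises and 2 falls among 13, with a median of 0.12. IDH2, which makes the 2-oxoglutarate that TET enzymes use, rose from 6.27 ± 1.23 to 11.5 ± 0.357 CPM (log2 fold change 0.87, adjusted p = 0.00127, edgeR). CXXC5, a CpG-binding partner of TET2, was at -0.73 (adjusted p = 0.0176), but was not called without WT replicate 3 (-0.52, adjusted p = 0.0613) or without ARID1A-KO replicate 4 (-0.62, adjusted p = 0.0715). IDH3A, of the citric acid cycle, passed narrowly (log2 fold change -0.20, adjusted p = 0.0482, edgeR). It lost its call in 5 of the 6 fits that left out 1 sample, all but that without ARID1A-KO replicate 3 (adjusted p of 0.0555 to 0.128). The number of changed genes in this list was 1 without WT replicate 3, 2 without WT replicate 5 and 1 without ARID1A-KO replicate 4. In the S-adenosylmethionine cycle, which supplies the methyl group, 5 of 17 rose and 3 fell, with a median of 0.07, and without WT replicate 3 these were 2 and 3. AHCY, which clears the product that inhibits methyltransferases, rose by 0.44 (adjusted p = 0.00203, edgeR), and was at 0.23 relative to its neighbours within 5 Mb (adjusted p = 0.0513) and at 0.11 within 2 Mb (adjusted p = 0.331). ADK, which removes adenosine, fell by 0.37 where its neighbours' median was 0.39, and was at -0.76 relative to them. MTAP, which recycles methylthioadenosine, rose by 0.35 (adjusted p = 0.0168) where its neighbours' median was -1.38, and lost the call without WT replicate 3 or 5 or ARID1A-KO replicate 3 or 4 (adjusted p of 0.0583 to 0.0751).

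Germline genes that methylation keeps silent in somatic cells were mostly too low to be tested in either genotype, with 10 of 23 tested. Some of the list were nevertheless abundant in WT cells, among them MAGEA4 with 604 ± 63.6 CPM, MAGEA1 with 155 ± 7.23 CPM and MAGEB2 with 128 ± 11.6 CPM, cancer-testis antigens named after their values were seen, whose close relatives may share reads. Their log2 fold changes were 0.16, 0.06 and 0.01 (adjusted p = 0.277, 0.555 and 0.967, edgeR). Only PRAME, another such antigen that was at 473 ± 49.1 CPM in WT, rose (611 ± 32.1 CPM, log2 fold change 0.37, adjusted p = 0.0084, edgeR), and the median of the 10 was 0.07. Without WT replicate 4 or without ARID1A-KO replicate 5 the count was 2, with 1 higher and 1 lower, and with no filter on low counts it was 4.

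Cell cycle genes moved in both directions. Of the 25 S phase genes 3 rose and 7 fell, with a median of -0.04, and without ARID1A-KO replicate 4 these were 2 and 4. CCNE2, a cyclin of the start of S phase, fell by 0.66 (adjusted p = 0.000485, edgeR), while E2F1, a transcription factor of the same step, rose by 0.60 (adjusted p = 9.63e-05, edgeR). Relative to neighbours within 5 and 2 Mb, E2F1 was at 0.38 and 0.21 (adjusted p = 0.00161 and 0.0286) and CCNE2 at -0.55 and -0.58. MCM2 and MCM3, subunits of the replicative helicase, fell by 0.47 and 0.42, and were at -0.06 and -0.17 relative to their neighbours within 5 Mb (adjusted p = 0.465 and 0.13, edgeR). Of the 20 genes of G2 and mitosis 3 rose and 2 fell, with a median of -0.13. CCNA2, a cyclin of S and G2, and NUSAP1, a spindle protein, fell by 0.28 each, and NUSAP1 was not called without ARID1A-KO replicate 4 (adjusted p = 0.0692). TPX2 and KIF11, of the mitotic spindle, rose by 0.20 and 0.24, but were at -0.08 and -0.03 relative to their neighbours within 5 Mb. TPX2 lost its call without any 1 sample but WT replicate 5 (adjusted p of 0.0761 to 0.123), and KIF11 without WT replicate 4 or 5 or ARID1A-KO replicate 3 or 5 (0.0636 to 0.104). The count in this list was 3 without WT replicate 3 or 4 and 2 without ARID1A-KO replicate 3 or 4.

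**Figure D5:**
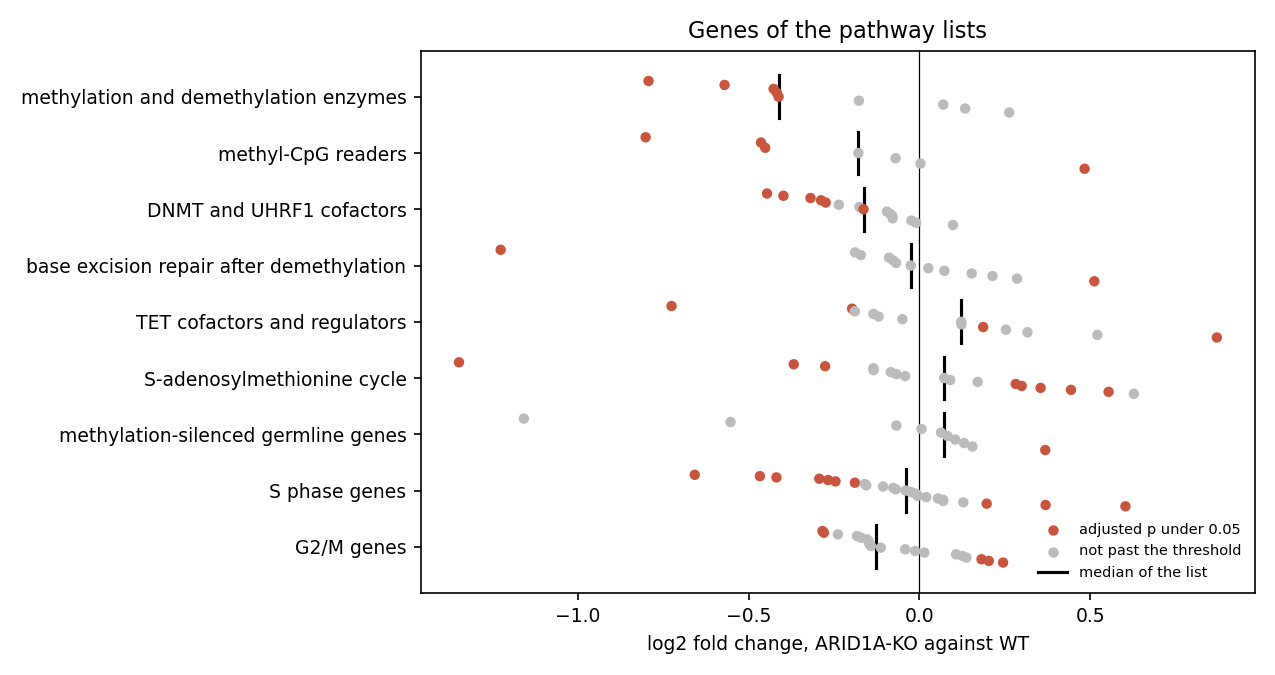
Log2 fold change in ARID1A-KO against WT samples of each tested gene of the enzyme group and of 8 related lists, with genes past an adjusted p of 0.05 in red, others in grey and the median of each list as a bar. The enzyme group has the lowest median at -0.41, and the related lists have medians between -0.18 and 0.12 with genes on both sides of 0.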

How the data were processed

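RNA-seq libraries came from 3 WT and 3 ARID1A-KO samples, grouped by the genotype in the labels, which give poly(A) RNA although the kit named is for total RNA. Per the study's methods the authors mapped reads to GRCh37 with STAR, and they deposited unnormalized featureCounts counts per gene. The reverse-strand counts were used, since forward-strand counts came to 5.83% to 6.15% of them. The deposited TPM are scaled to autosomal genes (sums over all genes 1330727 to 1382709) and were handled as a score.

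Genes passing filterByExpr were compared between genotypes in edgeR 4.0.16 (R 4.3.3) by the quasi-likelihood test, with TMM scaling, Benjamini-Hochberg adjustment and no covariate. The common biological coefficient of variation was 0.111. Replicates differed by more than sampling noise. TPM and ratios were compared with exact permutation tests (SciPy 1.17.1, Python 3.11.15). Neighbours are other tested genes that start within 5 Mb, and their median change was taken off as an offset in the fit. The offset came from the same samples and was treated as known, so p-values relative to neighbours do not include its uncertainty.

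Named genes are ARID1A, the 10 enzymes, up to 4 called genes per list with the largest change, no overlap and a mean log2 CPM over 1, TDG, HELLS, and the 3 nearest profiles of each enzyme that fell. Some genes that this rule names are not reported here. The enzymes and lists were chosen with earlier results of these data known. Alternatives were DESeq2 1.42.0, RLE, unstranded counts, other filters, a replicate block, offsets on exonic length and neighbours, each sample left out and an adjusted p under 0.01. Added after seeing the data were offsets on GC content and on neighbours within 2 Mb, and TPM rescaled over all genes. The edgeR fits without and with the block or the length offset, and DESeq2, were first tried on simulated data, and the neighbour offsets were not.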

Additional observations from a re-analysis of the deposited data

Results flagged for a closer look

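Reads on the strand opposite to the gene, which no comparison above used, were counted over each enzyme. DNMT3A was picked from the 10 enzymes because its CPM values did not overlap between genotypes. Means were 0.0933 CPM in ARID1A-KO samples and 0.0441 CPM in WT samples. The counts were 2, 5 and 2 in WT replicates 3, 4 and 5 and 6, 4 and 10 in the ARID1A-KO replicates. They were at most 0.752% of the counts on the DNMT3A strand. ARID1A-KO replicate 4, with 4 counts, lay above WT replicate 4, with 5 counts, only through its smaller library. Over TET2 the means were 0.114 CPM in ARID1A-KO and 0.0452 CPM in WT samples, with overlap. The share of all genes without such overlap was not computed, and the difference over DNMT3A was not tested.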

How the results depend on the processing

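The falls of UHRF1 and TET3 were called under all 17 alternatives (highest adjusted p 0.0113 and 0.022), and those of DNMT1, UHRF2 and MBD4 under every one except the neighbour offsets. With neighbours within 5 Mb taken off, DNMT1 was at -0.15, DNMT3B at -0.17, TET1 at -0.16, UHRF2 at 0.049 and MBD4 at 0.0075. Of the 9 tested enzymes 2 were then called, beside 6282 of all 19599 genes tested. Within 2 Mb the values were -0.13, -0.38, -0.22, 0.049 and -0.068, and 3 enzymes were called, beside 6348 of all genes tested. These offsets take the neighbours' median off each gene with at least 10 neighbours. TET2 had 9 within 2 Mb, so its value there is without an offset, and MBD2, NEIL3 and MTAP had no offset at 2 Mb either. An adjusted p under 0.01 left 4414 changed genes and 23 pathway genes. Leaving out single samples gave 26 to 41 pathway genes. In the same fits 2538 to 3405 of all genes rose and 2747 to 3698 fell, against 3483 and 3616 with all samples. HELLS turned to 0.0704 with the length offset and 0.051 with the GC offset, and ran from -0.11 to 0.12 with single samples left out. TPX2 (-0.0803 and -0.159) and KIF11 (-0.026 and -0.0077) turned with neighbours within 5 and 2 Mb taken off. Why single samples or offsets changed these values was not tested.

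The replicate block gave 3708 higher and 3769 lower genes, 7477 in all. Deviations of same-numbered samples correlated at -0.245, 0.504 and 0.329 for replicates 3, 4 and 5 over 13217 genes. Not every sample correlated best with its own number. These deviations are from means of 3 samples and so depend on each other, and they cannot decide whether the numbers pair the samples. With the block, the call of no enzyme changed. DNMT3L, with 1 count, was too low to be tested.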
